A study of Mus musculus with 5 samples.

Results

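Fatty acid oxidation was followed through 32 genes of mouse liver, taken by gene symbol from a table of 33589 rows. They encode the enzymes of mitochondrial and peroxisomal β-oxidation, the electron transfer flavoprotein, acyl-CoA and ketone body enzymes, the nuclear receptor PPARα and some of its targets. The set was selected on the difference between knockout and control FPKM in these same 5 libraries, which was known when the genes were proposed, so values of that difference below are a description and support no claim about the pathway. RNA was sequenced from livers of male mice of 6 weeks that were fed a high-fat diet for 4 weeks. The 2 control livers were Hegfl/fl, which carries the floxed Heg1 gene without Cre. The 3 knockout livers were Lyve1-Cre;Hegfl/fl, in which the same floxed gene was combined with a Cre recombinase under Lyve1. Both groups therefore carried the floxed allele and the diet, and no Cre-only or chow-fed group was part of the comparison. The labels do not state whether each library is a separate animal, so control and knockout livers here stand for libraries. Lyve1 is expressed in lymphatic and sinusoidal endothelial cells and not in hepatocytes, the cells in which most of the genes described here act.

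Hepatocytes take up fatty acids, activate them to acyl-CoA and pass them into mitochondria as acylcarnitines. There a cycle of dehydrogenation, hydration, a second dehydrogenation and thiolysis shortens the chain, and the electrons of the first step reach the respiratory chain through the electron transfer flavoprotein. Very long chains are first shortened in peroxisomes, and the acetyl-CoA of both organelles feeds ketone body synthesis. PPARα, a receptor for fatty acids that is active in fasting and on fat-rich diets, drives many of these genes in liver as a heterodimer with RXR.

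Levels are in FPKM, which divide fragments by transcript length and by library size, and can therefore be set beside each other between genes. The number of reads behind a value is unknown, because no steps of whole reads could be recovered. Heg1 stood at 0.48 and 0.35 FPKM in control livers against 0.45, 0.43 and 0.50 FPKM in knockouts, and thus does not separate the groups in whole liver. The deleted part of the gene is not given, so this value checks the labels only weakly. Lyve1 itself overlapped between the groups, with 7.34 and 8.92 FPKM in control livers against 3.9, 7.32 and 10.5 FPKM in knockouts. The tissue label was matched by its markers, with Alb between 37676 and 51017 FPKM in the 5 libraries. The 8 hepatocyte markers summed to 84022 and 79866 FPKM in control livers against 68299, 68406 and 82709 FPKM in knockouts. Adipoq, Plin1, Lep and Retn of fat tissue and Prss2, Cpa1, Pnlip and Amy2a5 of the exocrine pancreas were listed at 0 in every library. Adipor2 and Cfd were also on the fat tissue list, and Cela1 and Cela2a on the pancreas list. The 6 fat tissue markers summed to 140 and 134 FPKM in control livers against 175, 126 and 154 FPKM in knockouts. The 6 pancreas markers summed to 54.2 and 43 FPKM in control livers against 65.7, 63.7 and 44 FPKM in knockouts. Knockout 1 stood apart by its hemoglobin transcripts, 4 of which summed to 1235 FPKM, against 168 and 82.1 FPKM in knockouts 2 and 3 and 73.2 and 75.0 FPKM in controls. Counts of members and of other pathway genes without overlap are given without knockout 1 as well, whereas most values of single genes and marker sums are not. In whole liver, fewer cells of a type and less RNA per cell cannot be told apart.

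The start regions of 7 members are shown because they hold, or lack, the letters PPARα and RXR are known to bind. These are the 3 members with a near match to that element, the 3 members with the smallest p in the comparison, and Cpt1a, which lay on the higher side in knockouts. The element (DR1) was searched on both strands as 2 copies of AGGTCA in the same direction with any 1 base (N) between them, with at most 2 mismatches. Each sequence gives the 250 bases before the RefSeq start, 5′ to 3′ on the strand of the gene, on GRCm38.p6. Capitals mark a DR1 match where there is one, and otherwise an exact single copy of AGGTCA on either strand, which every exact DR1 also contains.
Fabp1 (chr6:71199629-71199878, plus strand): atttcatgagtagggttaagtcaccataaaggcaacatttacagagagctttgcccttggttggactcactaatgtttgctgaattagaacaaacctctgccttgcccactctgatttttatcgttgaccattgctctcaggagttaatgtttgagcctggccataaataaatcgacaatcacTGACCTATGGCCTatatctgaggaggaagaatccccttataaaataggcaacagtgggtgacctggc
Etfa (chr9:55512244-55512493, minus strand): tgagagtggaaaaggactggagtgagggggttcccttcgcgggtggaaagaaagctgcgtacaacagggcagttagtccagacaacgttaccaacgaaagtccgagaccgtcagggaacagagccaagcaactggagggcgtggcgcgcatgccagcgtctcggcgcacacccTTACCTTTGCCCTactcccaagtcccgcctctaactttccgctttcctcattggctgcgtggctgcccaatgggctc
Acot4 (chr12:84038129-84038378, plus strand): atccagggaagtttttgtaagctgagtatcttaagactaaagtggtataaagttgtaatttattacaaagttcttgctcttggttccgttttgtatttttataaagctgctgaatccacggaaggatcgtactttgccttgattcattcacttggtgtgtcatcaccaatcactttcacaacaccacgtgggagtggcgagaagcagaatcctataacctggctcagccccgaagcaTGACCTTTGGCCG
Acadm (chr3:153944644-153944893, minus strand): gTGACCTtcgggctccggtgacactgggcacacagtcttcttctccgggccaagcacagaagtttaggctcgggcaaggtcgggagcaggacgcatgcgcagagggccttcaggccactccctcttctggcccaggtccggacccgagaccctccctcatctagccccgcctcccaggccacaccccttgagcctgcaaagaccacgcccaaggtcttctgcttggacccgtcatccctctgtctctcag
Acaa1b (chr9:119157094-119157343, minus strand): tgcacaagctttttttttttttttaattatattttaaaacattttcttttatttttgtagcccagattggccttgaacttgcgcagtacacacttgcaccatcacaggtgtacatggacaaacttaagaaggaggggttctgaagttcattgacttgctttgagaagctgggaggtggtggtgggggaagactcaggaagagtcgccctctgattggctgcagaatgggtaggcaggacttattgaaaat
Etfbkmt (chr6:149141263-149141512, plus strand): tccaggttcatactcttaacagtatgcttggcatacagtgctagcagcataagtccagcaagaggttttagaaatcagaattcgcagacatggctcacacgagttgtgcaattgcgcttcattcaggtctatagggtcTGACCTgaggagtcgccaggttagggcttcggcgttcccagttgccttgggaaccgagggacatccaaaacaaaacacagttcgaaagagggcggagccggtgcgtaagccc
Cpt1a (chr19:3323051-3323300, plus strand): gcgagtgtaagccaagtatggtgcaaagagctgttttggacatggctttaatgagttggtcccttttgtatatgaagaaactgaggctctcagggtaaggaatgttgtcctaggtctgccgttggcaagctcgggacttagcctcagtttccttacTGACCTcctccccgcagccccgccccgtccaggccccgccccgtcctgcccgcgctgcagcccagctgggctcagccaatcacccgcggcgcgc

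Of the 32 members, 27 had a start region in the RefSeq table, with 30 windows of 300 bases (250 before and 50 after the start) among them. Decr1, Vnn1, Crat, Acaa2 and Hsd17b4 were not matched. A DR1 with at most 2 mismatches was found in 3 of the 30 windows (10%), against 3.86% of all 32851 windows of the same length. An exact DR1 was in 0 of the 30 windows and in 0.0396% of all windows. The match in Fabp1 had 1 mismatch and began 67 bases before the start. Those of Etfa and Acot4 had 2 mismatches and began 77 and 13 bases before it. An exact single copy, which overlaps the DR1 search, was in 8 of 30 windows (26.7%), against 16.3% of all. Acadm and Cpt1a each had 1 in the stretch printed, as did Etfbkmt, and Acaa1b had none. The 3 members with a DR1 match did not share a direction in the comparison described next. The letters are a description and show no binding, and elements outside these windows were not searched.

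Among the tested members, the 4 genes with an unadjusted p under 0.05 and lower values in knockouts were Etfbkmt, Acaa1b, Vnn1 and Acadm. Etfbkmt, the methyltransferase that modifies the β subunit of the electron transfer flavoprotein, was at 0.469 times its control mean. Acaa1b, a peroxisomal thiolase, was at 0.688 times, Vnn1, the pantetheinase that is a PPARα target, at 0.697 times, and Acadm, the medium-chain acyl-CoA dehydrogenase, at 0.742 times. Cpt1a and Acsl1, which bring fatty acids into the mitochondrial route, both stood at 1.27 times their control mean. Of the 32 members, 30 passed the filter of a mean FPKM of at least 1 and were tested, and Pdk4 and Acot2 did not pass it. By limma with Benjamini-Hochberg adjustment over 10820 rows 0 of the 30 passed, as did 0% of all rows, and the smallest adjusted p among members was 0.587. At an unadjusted limma p under 0.05 there were 4 lower and 1 higher member, where 1.71% and 5.29% of all rows were called lower and higher. After median-of-ratios scaling, rows with such a p were split into 393 lower and 273 higher, in place of 185 and 572. The difference, knockout minus control, of mean log2(FPKM + 1) was below 0 in 24 of 30 members, with a median of -0.11 beside 0.06 over all tested rows. Median-of-ratios scaling moved the median of all rows to -0.007 and their share with a lower mean from 35.8% to 51.6%, and the members' median to -0.184.

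In 11 of the 30 members all 3 knockouts lay below both controls, and the same was true of 6.38% of all tested rows. In 2 members, Cpt1a and Acsl1, all knockouts lay above both controls, as in 18.9% of all rows. Nothing is read from these shares, because this comparison was known when the genes were chosen. Scaling by the median of ratios moved the counts to 17 lower and 0 higher members, when 13.1% and 11.0% of all rows did not overlap. The lower count was also 18 without control 2 and 18 without knockout 2, where 15.3% and 10.3% of all rows lay lower without overlap, since fewer libraries overlap less easily. The higher count was 4 without control 1 and 4 without knockout 2, where 32.6% and 27.5% of all rows lay higher without overlap. Without knockout 1 the counts were 11 and 2, while the shares of all rows were 12.1% and 28.3%.

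**Figure D1:**
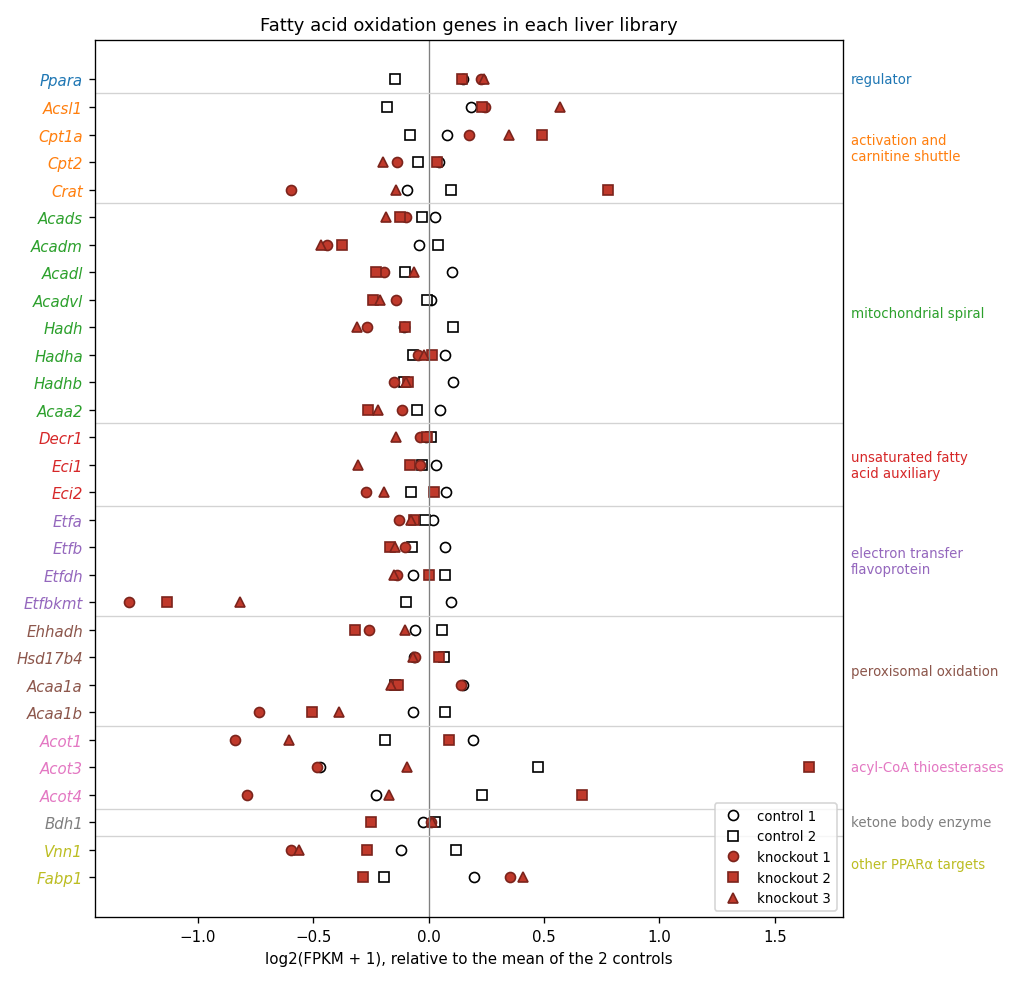
Each row is 1 of the 30 tested genes, and the horizontal axis is log2(FPKM + 1) of each library minus the mean of the 2 controls (open symbols), with the 3 knockouts as filled symbols. The 3 knockouts of Etfbkmt, Acadm, Acaa1b and Vnn1 lie left of both controls, and Crat, Acot3 and Acot4 scatter widely within the knockouts.

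Markers of hepatocytes, of other cells and of the time of day were looked at beside these values. The 15 clock genes summed to 288 and 260 FPKM in control livers against 335, 324 and 298 FPKM in knockouts, groups that do not overlap. Its 3 most abundant genes were Dbp, Tef and Nr1d2, of which Tef alone had groups that did not overlap, with 65.1 and 68.0 FPKM in control livers against 71.7, 73.2 and 80.2 FPKM in knockouts. Cholangiocyte markers summed to 29.7 and 40.7 FPKM in control livers against 72.6, 51.2 and 55.3 FPKM in knockouts. Most of that was Spp1, with 26.0 and 38.4 FPKM in control livers against 66.4, 47.8 and 50.4 FPKM in knockouts, while Krt19 and Epcam overlapped between the groups and were at most 2.11 FPKM. Sox9 was also higher without overlap, with 0.64 and 0.73 FPKM in control livers against 1.5, 1.1 and 0.79 FPKM in knockouts. The 8 lymphocyte markers summed to 2.70 and 3.96 FPKM in control livers against 6.96, 4.66 and 4.25 FPKM in knockouts. Ptprc was the highest of them, with 1.73 and 2.06 against 3.05, 2.81 and 2.81 FPKM, and Cd79a, with 0.27 and 0.22 against 0.82, 0.35 and 0.6 FPKM, was higher without overlap as well. The other 6 overlapped between groups. Sox9 and Cd79a had a mean under 1 FPKM and were not tested. Of tested genes, 1 of 12 clock, 1 of 3 cholangiocyte and the 1 lymphocyte gene were higher without overlap. The same was true of 18.9% of all tested rows. In the clock list 1 tested gene was lower without overlap, as were 6.38% of all tested rows. Of the 8 hepatocyte markers 5 had a lower and 3 a higher mean in knockouts, with a median log2 difference of -0.14. Without overlap 2 of them were lower (25%) and 1 higher (12.5%), beside 6.38% and 18.9% of all tested rows. Of 13 mitochondrial genome transcripts 9 had a lower and 4 a higher mean. Without overlap 3 of these were lower (23.1%) and 1 higher (7.69%). The sums of sinusoidal endothelial, Kupffer cell and stellate cell markers, of fasting and feeding genes and of mitochondrial genome transcripts overlapped between the groups. Within the fasting and feeding list, however, 7 of 12 tested genes had a lower and 5 a higher mean in knockouts. Their log2 differences ran from -1.86 to 1.16. In 0 genes of the list were the knockouts higher without overlap. The 3 genes that were lower without overlap made up 25%, beside 6.38% of all tested rows. Among them G6pc1, the phosphatase that releases glucose, had 166.5 and 245 FPKM in control livers against 89.0, 54.1 and 33.9 FPKM in knockouts. Pck1, of glucose synthesis, had 1100.03 and 1066 FPKM in control livers against 965, 962 and 679 FPKM in knockouts. The part of any of these in the differences described here was not tested.

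The regulator and the entry steps came first along the route. Ppara stood at 33.5 and 27.1 FPKM in control livers against 35.4, 33.45 and 35.8 FPKM in knockouts. Control 2 was the lowest library, and control 1 lay within the range of the knockouts, so the groups overlapped (log2 difference 0.20, SE 0.12). The difference was 0.351 without control 1 and 0.056 without control 2. Acsl1 (chromosome 8, 46471037 to 46536051, plus strand, mm10), the main long-chain acyl-CoA synthetase of liver, had 292 and 227 FPKM in control livers against 305, 302 and 382 FPKM in knockouts. Knockouts 1 and 2 were just above control 1, and knockout 3 was the highest (log2 difference 0.35, SE 0.16, limma adjusted p = 0.711). The difference was 0.530 without control 1 and 0.167 without control 2. Cpt1a (chromosome 19, 3322334 to 3385733, plus strand), the carnitine palmitoyltransferase of the outer membrane and the step that malonyl-CoA inhibits, had 105 and 93.9 FPKM in controls. Its knockouts were at 112, 139.7 and 127 FPKM, all above the controls (log2 difference 0.34, SE 0.12, adjusted p = 0.70 from limma). After median-of-ratios scaling neither gene kept its groups apart. Cpt2, which returns the acyl group to CoA on the inner membrane, had 78.7 and 74.0 FPKM in control livers against 69.3, 78.2 and 66.4 FPKM in knockouts, and the groups overlapped. The ratio of Cpt1a to Cpt2 was 1.33 and 1.27 in control livers against 1.62, 1.79 and 1.91 in knockouts. Crat, which moves short acyl groups between carnitine and CoA, was at 7.49 and 8.70 FPKM in control livers against 5.0, 14.6 and 7.23 FPKM in knockouts. Knockouts 1 and 2 thus lay on opposite sides of both controls for Crat.

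**Figure D2:**
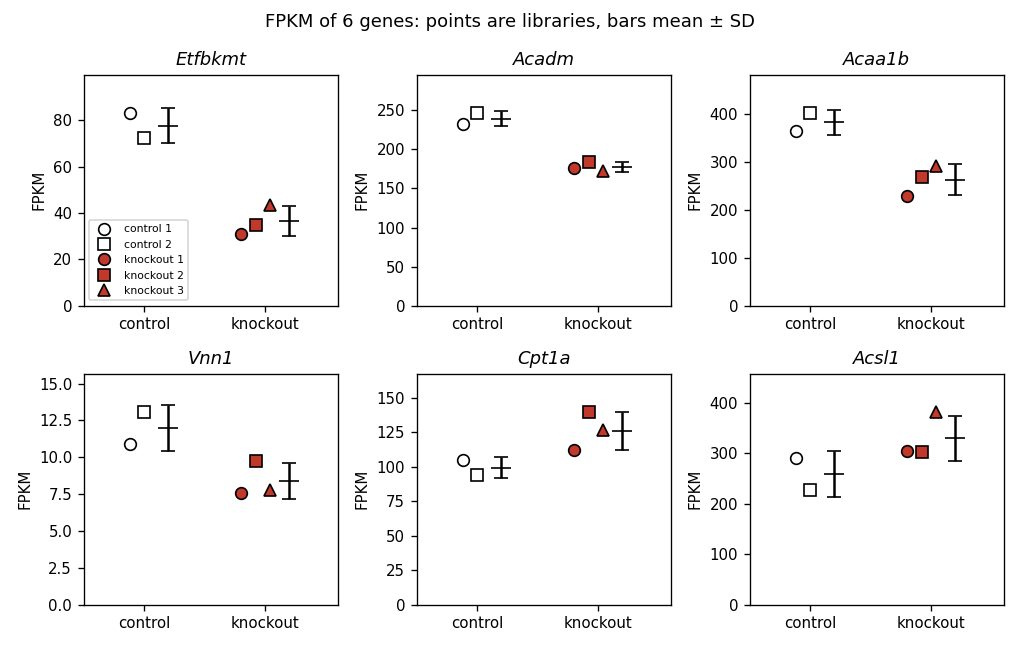
FPKM of 6 genes in each library on axes that start at 0, with bars for the mean ± SD of 2 controls and 3 knockouts. Etfbkmt, Acadm, Acaa1b and Vnn1 are lower in every knockout than in either control, and Cpt1a and Acsl1 are higher.

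All 8 enzymes of the mitochondrial cycle had a lower mean in knockouts, although Hadha turned to 0.001 with quantile normalization and to 0.051 without control 1. Acadm (chromosome 3, 153922357 to 153944632, minus strand) was the member of this group with the largest difference. It had 232 and 246 FPKM in control livers against 176, 184 and 173 FPKM in knockouts. The knockouts lay close together and well below both controls (log2 difference -0.43, SE 0.09, 95% interval -0.64 to -0.21, limma adjusted p = 0.675). The other acyl-CoA dehydrogenases, which share the first step by chain length, differed less. Acadvl, for very long chains, had 222 and 219 FPKM in control livers against 200.1, 187 and 191 FPKM in knockouts, without overlap. Acads, for short chains, had 91.7 and 88.2 FPKM in control livers against 83.9, 82.3 and 79.0 FPKM in knockouts, without overlap. Acadl, for long chains, had 93.8 and 81.4 FPKM in control livers against 76.3, 74.4 and 83.6 FPKM in knockouts, where knockout 3 lay above control 2. The ratio of Acadm to Acads was 2.53 and 2.79 in control livers against 2.10, 2.23 and 2.18 in knockouts.

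The later steps of the cycle lay closer together. Hadha and Hadhb, the subunits of the trifunctional protein that handles long chains, lie head to head on chromosome 5. Hadha had 127 and 115.1 FPKM in control livers against 116.9, 122 and 119.1 FPKM in knockouts, and Hadhb 142 and 122 FPKM against 118.5, 124 and 123 FPKM. For each gene the groups overlapped, while the ratio of Hadha to Hadhb was 0.896 and 0.943 in controls and between 0.969 and 0.987 in knockouts. Hadh, the dehydrogenase for medium and short chains, had 177 and 205 FPKM in control livers against 158, 177 and 153 FPKM in knockouts. Knockout 2 reached the lower control. Acaa2, the mitochondrial thiolase and the second most abundant member, had 633 and 590.4 FPKM in control livers against 565, 509 and 524 FPKM in knockouts, without overlap (log2 difference -0.20, SE 0.09).

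Eci1, Eci2 and Decr1 prepare unsaturated chains for the cycle. Eci1 had 98.6 and 94.4 FPKM in control livers against 94.0, 91.2 and 77.8 FPKM in knockouts. Its groups did not overlap, but knockout 1 was within 1 FPKM of control 2. Eci2 and Decr1 overlapped between the groups, with log2 differences of -0.15 (SE 0.12) and -0.06 (SE 0.09). Leaving out 1 library gave between -0.233 and -0.071 for Eci2, and -0.022 for Decr1 without knockout 3.

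The electron transfer flavoprotein group held the largest difference of all 30 genes. Etfbkmt (chromosome 6, 149139849 to 149151171, plus strand) had 82.9 and 72.3 FPKM in control livers against 30.9, 34.75 and 43.6 FPKM in knockouts. The lowest control was far above the highest knockout (log2 difference -1.08, SE 0.16, 95% interval -1.47 to -0.70), yet the limma adjusted p was 0.587. In GENCODE M21 no annotated gene overlaps Etfbkmt, but Gm45233 overlaps Etfb over 13673 bases on the same strand, so reads of Etfb are less certain. Its substrate Etfb had 516 and 468 FPKM in control livers against 458, 437 and 444 FPKM in knockouts, and Etfa, the α subunit, had 221 and 216 FPKM against 199, 209 and 207 FPKM. Neither subunit overlapped between the groups, with log2 differences of -0.14 and -0.09 that were each less than 2 SE from 0. That of Etfb was -0.067 without control 1 and -0.209 without control 2. Etfdh, the oxidoreductase that hands the electrons to ubiquinone, overlapped between the groups, with 89.0 and 98.0 FPKM in control livers against 84.9, 93.4 and 84.1 FPKM in knockouts. The ratio of Etfa to Etfb lay between 0.428 and 0.477 in every library. The ratio of Etfbkmt to Etfb was 0.161 and 0.155 in control livers against 0.0674, 0.0795 and 0.0980 in knockouts.

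**Figure D3:**
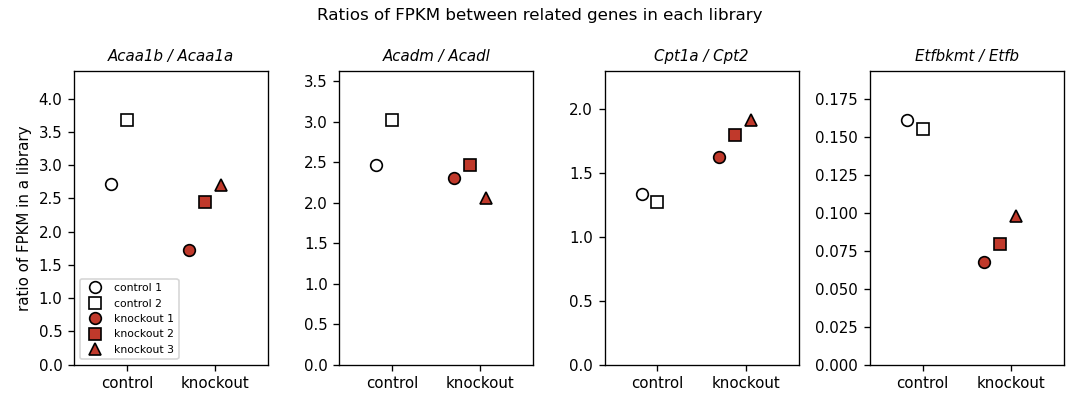
Ratio of the FPKM of related genes within each library, on axes that start at 0, with open symbols for controls and filled symbols for knockouts. Etfbkmt to Etfb and Cpt1a to Cpt2 separate the groups widely, whereas for Acaa1b to Acaa1a and Acadm to Acadl the highest knockout comes close to control 1.

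In the peroxisome the 2 thiolases differed from each other. Acaa1b (chromosome 9, 119148023 to 119157093, minus strand) had 364 and 400.5 FPKM in control livers against 229, 268 and 291 FPKM in knockouts, without overlap (log2 difference -0.54, SE 0.13, limma adjusted p = 0.675). Acaa1a, found further along chromosome 9 (119339676 to 119350299, plus strand), had 134 and 109 FPKM in control livers against 133, 109.8 and 107 FPKM in knockouts. For Acaa1a the groups covered nearly the same range, and the sign of its difference turned to 0.095 without control 1. The longest coding transcripts of the pair were 96.6% identical over 1428 aligned bases, so reads may be assigned to either and the split between them is uncertain. Their sum was 497 and 509 FPKM in control livers against 362, 378 and 398 FPKM in knockouts, which also kept the groups apart. Ehhadh, the peroxisomal bifunctional enzyme of straight chains and a PPARα target, had 60.7 and 65.8 FPKM in control livers against 52.7, 50.4 and 58.7 FPKM in knockouts. Its groups did not overlap, with knockout 3 near control 1 (log2 difference -0.23, SE 0.11). Hsd17b4, the bifunctional enzyme that also serves branched chains and bile acid precursors, had 135 and 148 FPKM in control livers against 135, 145 and 134 FPKM in knockouts, and overlapped.

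The thioesterases, which release free fatty acids from CoA, lie in a cluster on chromosome 12 and scattered more between knockouts than between groups. Acot1, the cytosolic form, had 9.08 and 6.74 FPKM in control livers against 3.94, 8.39 and 4.81 FPKM in knockouts. Acot4, a peroxisomal form, had 4.11 and 6.03 FPKM in control livers against 2.47, 8.51 and 4.32 FPKM in knockouts. Acot3, also peroxisomal, had 0.36 and 1.62 FPKM in control livers against 0.35, 4.92 and 0.77 FPKM in knockouts. In each of the 3 genes knockout 2 was the highest knockout and knockout 1 the lowest, and the groups overlapped. Acot2, the mitochondrial form, was at most 0.95 FPKM. Acot1 and Acot2 were 93.8% identical over 1337 bases, so their values are uncertain one by one. Acot3 and Acot4 are overlapped on the same strand by Gm49366, over 6470 and 9667 bases.

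Bdh1, which interconverts the ketone bodies acetoacetate and β-hydroxybutyrate, had 116.6 and 121 FPKM in control livers against 119.7, 99.5 and 119.9 FPKM in knockouts. Only knockout 2 lay below the controls. Vnn1 (chromosome 10, 23894688 to 23905343, plus strand) had 10.9 and 13.1 FPKM in control livers against 7.55, 9.76 and 7.75 FPKM in knockouts (log2 difference -0.48, SE 0.15, limma adjusted p = 0.70). All 3 knockouts were below control 1, the lower of the controls. Pdk4, the kinase that shuts off pyruvate dehydrogenase when fat is burned, was low in all livers, with 1.10 and 0.99 FPKM in control livers against 0.55, 0.55 and 0.59 FPKM in knockouts. Its groups did not overlap, but it was below the filter and is in none of the counts above. Fabp1, the fatty acid binding protein of the hepatocyte cytosol, was the most abundant member, with 6994 and 5341 FPKM in control livers against 7796, 5020 and 8121 FPKM in knockouts. Knockout 2 was below and the other knockouts above both controls.

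**Figure D4:**
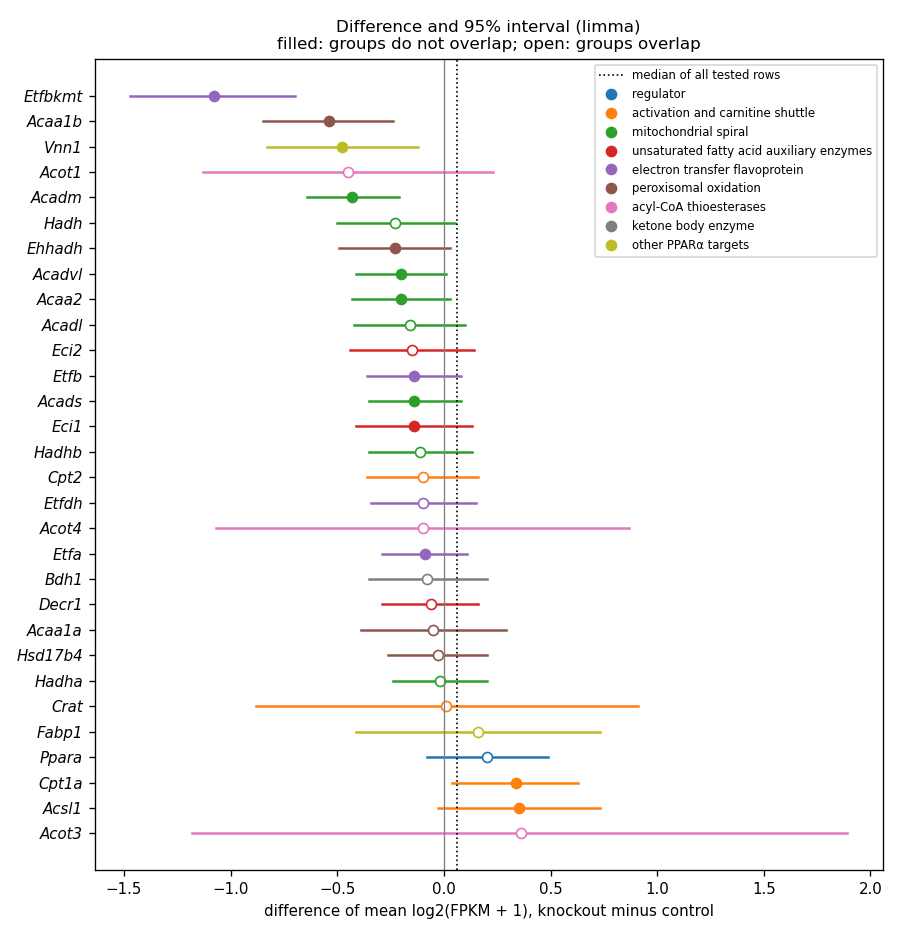
Difference of mean log2(FPKM + 1), knockout minus control, with the 95% interval from limma for each of the 30 tested members, coloured by role. Filled points mark the 13 members whose groups do not overlap, and the dotted line at 0.06 is the median of all tested rows.

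Abundance in controls spanned several orders of magnitude. After Fabp1 the highest members were Acaa2 with 612 ± 30.3, Etfb with 492 ± 34.2 and Acaa1b with 382 ± 26.1 FPKM (SD, n = 2). Acsl1, Acadm, Acadvl and Etfa followed between 218 and 259 FPKM. The controls of Acsl1 spanned those of Acadm, and the controls of Acadvl and Etfa overlapped, whereas those of Acadm lay above those of Acadvl. Hadha and Acaa1a had the same mean, 121 FPKM, and overlapped with Bdh1. Etfbkmt, at 77.6 ± 7.5 FPKM, stood beside Cpt2 with 76.4 ± 3.37 FPKM in controls. Vnn1, Crat, Acot1 and Acot4 lay between 5.07 and 12 FPKM, and Pdk4, Acot3 and Acot2 at or under 1.04 FPKM. In knockouts Etfbkmt stood at position 24 of 32, against 21 in controls, and Cpt1a at 12, against 16.

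Beyond the members, 122 further genes of these routes were taken by function, of which 110 were tested. They too were chosen with earlier results of these data known, so their counts are a description and support no claim about the pathway. Of these 60 had a lower and 50 a higher mean in knockouts, and the median log2 difference was -0.015. With limma 0 of the 110 passed the adjustment over all rows, as did 0% of all rows. At an unadjusted limma p under 0.05 there were 11 lower and 8 higher genes, beside 1.71% and 5.29% of all rows. The groups did not overlap in 22 genes that were lower (20%) and 16 that were higher (14.5%), beside 6.38% and 18.9% of all rows. The median turned to 0.040 without control 2, and median-of-ratios scaling gave 75 genes with a lower mean. That scaling also moved the share of all rows with a lower mean from 35.8% to 51.6%. Without control 1 the groups did not overlap in 42 lower and 28 higher genes, and without control 2 in 32 and 36, beside 19.5% and 32.6% and beside 15.3% and 37.5% of all rows. Without knockout 1 the groups did not overlap in 27 lower and 24 higher of 111 tested genes, beside 12.1% and 28.3% of all rows. The medians of the steps ranged from -0.13 for 7 genes of ketone body synthesis and export, -0.11 for 6 further thioesterases and -0.07 for 18 further mitochondrial enzymes to 0.03 for 21 further peroxisomal genes and 0.09 for 13 genes of activation and carnitine handling. These differences between steps were not tested.

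**Figure D5:**
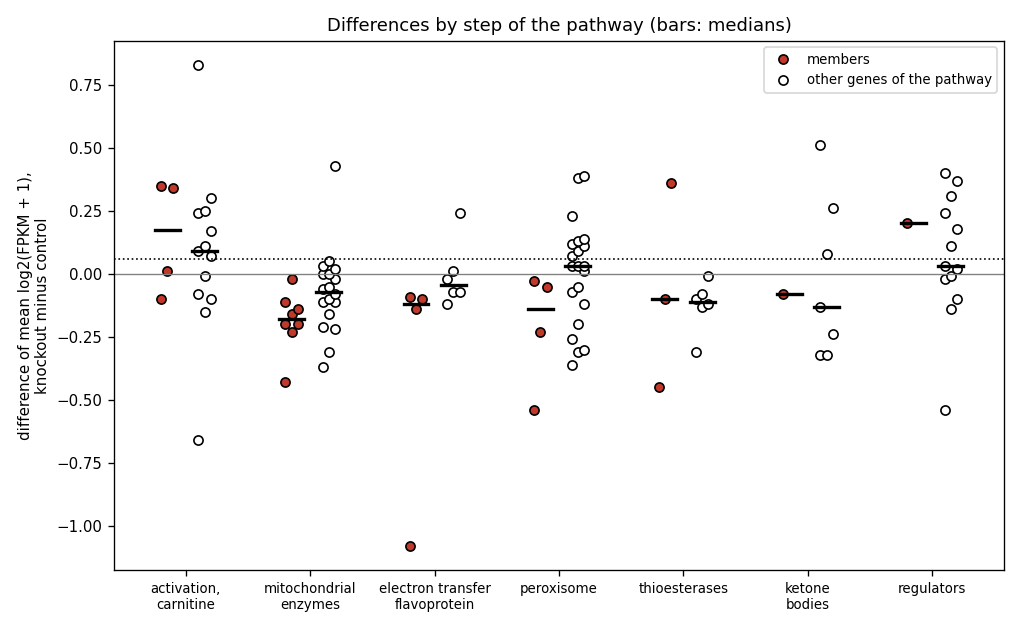
Difference of mean log2(FPKM + 1), knockout minus control, for members (filled) and for other genes of each step (open), with bars at the medians. The mitochondrial enzymes lie mostly below 0 and below the dotted line at 0.06, the median of all tested rows. The 4 peroxisomal members also lie below 0, while the other peroxisomal genes spread to both sides. Enzymes of unsaturated chains and the lists of PPARα targets are not shown.

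Among the further mitochondrial genes Ech1, a dienoyl-CoA isomerase, had 259 and 246 FPKM in control livers against 192, 199.7 and 195 FPKM in knockouts (log2 difference -0.37, SE 0.09). Acat1, the thiolase that makes acetoacetyl-CoA, had 136 and 138 FPKM in control livers against 113, 109 and 109.65 FPKM in knockouts (log2 difference -0.31, SE 0.09). In both genes the knockouts were tightly grouped below the controls, much as for Acadm. Acad12, a little-studied dehydrogenase, was on the other side, with 3.43 and 3.51 FPKM in control livers against 5.57, 5.2 and 4.32 FPKM in knockouts.

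In the peroxisome Nudt19, which splits CoA, had 34.55 and 40.7 FPKM in control livers against 27.65, 30.15 and 28.9 FPKM in knockouts. Acox2, the oxidase of branched chains, had 109 and 116.8 FPKM in control livers against 84.2, 101 and 90.5 FPKM in knockouts. Pecr and Acot8, a further reductase and thioesterase of the organelle, were also lower without overlap, with log2 differences of -0.31 (SE 0.13) and -0.31 (SE 0.12).

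Around the entry step Acacb, which makes the malonyl-CoA that inhibits CPT1, had 6.38 and 6.29 FPKM in control livers against 8.66, 11.97 and 16.5 FPKM in knockouts (log2 difference 0.83, SE 0.24). Dbi, the acyl-CoA binding protein, had 1139 and 1163 FPKM in control livers against 1387, 1327 and 1382 FPKM in knockouts. Acsm3, a medium-chain acyl-CoA synthetase, had 65.4 and 108 FPKM in control livers against 51.2, 49.8 and 58.3 FPKM in knockouts. Slc27a1 and Slc16a6, transporters of fatty acids and of ketone bodies, and Ucp2, a mitochondrial carrier, were higher without overlap, with log2 differences of 0.33, 0.51 and 0.53. Slc27a1 and Ucp2 were listed as PPARα targets. Slc16a6 was low, with 1.53 and 1.65 FPKM in control livers against 2.49, 2.72 and 2.83 FPKM in knockouts. The coactivators Ncoa2 and Ppargc1b were higher without overlap as well, with log2 differences of 0.31 and 0.40.

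Cyp4a14 and Cyp4a10, microsomal ω-hydroxylases that PPARα induces, had larger differences than the β-oxidation enzymes, but the other Cyp4a genes on the list did not all follow them. Cyp4a14 had 65.9 and 74.0 FPKM in control livers against 1.28, 7.06 and 3.25 FPKM in knockouts, and Cyp4a10 had 53.65 and 66.0 FPKM against 4.34, 46.0 and 12.7 FPKM. Cyp4a31 was also lower without overlap, with 3.74 and 1.89 FPKM in control livers against 0.45, 1.86 and 1.78 FPKM in knockouts. Cyp4a12a, Cyp4a12b and Cyp4a32 overlapped between the groups, with knockout means at 1.03, 1.06 and 1.34 times the control mean. These 4 Cyp4a genes were chosen after their values were seen. Retsat, a retinol saturase and PPARα target, had 167 and 109 FPKM in control livers against 94.5, 93.1 and 99.2 FPKM in knockouts. These genes are on a list of further PPARα targets, which also holds Slc27a1 and Ucp2. Of its 26 tested genes 15 had a lower and 11 a higher mean in knockouts, with a median log2 difference of -0.07. Without overlap 7 were lower (26.9%) and 2 higher (7.69%), beside 6.38% and 18.9% of all tested rows. Cyp4a14, Cyp4a10 and Retsat were lower without overlap, and none passed limma's adjustment over all rows (adjusted p between 0.587 and 0.70). The labels do not state whether each library is a separate animal, so every SD and p-value covers only the variation among these 5 libraries, which may be technical.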

How the data were processed

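RNA-seq values of 5 mouse liver libraries, 2 control and 3 knockout, were used as the authors deposited them. The FPKM values deposited by the authors were made from reads with HISAT2, StringTie and DESeq2 on build mm10, per the submitters' processing notes. Versions and the role of each tool are not given in the sources used here, nor is the use of strand. Both deposited tables held identical values in all 33589 rows, and 1 was used. FPKM sums were between 797692 and 820498 per library. Single-exon genes were searched for steps of whole reads, and at most 34.9% of their values lay within 0.1 of a whole multiple, so depth is unknown.

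Rows with a mean FPKM of at least 1 (10820 rows) were tested with limma 3.58.1 in R 4.3.3 on log2(FPKM + 1), with a trended prior variance and genotype as the only term. Tests were two-sided, with Benjamini-Hochberg adjustment at 0.05. Differences on this scale understate the change of genes with low FPKM. The test was tried on simulated data.

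The members and the lists of other pathway genes and markers were chosen with earlier results of these data known. Of 275 list entries 262 matched a row, with Arntl and G6pc renamed to Bmal1 and G6pc1. The rule for named genes took the members, and those other pathway genes with an unadjusted p under 0.05. Pdk4, Acot2 and Heg1, below the filter, were read from the fit with a filter of 0.1 FPKM. Gene positions are those of GENCODE M21 (mm10), and start regions those of RefSeq on GRCm38.p6. Transcripts were aligned with BLAST+ 2.17.0. Alternatives were another pseudocount, other filters, quantile and median-of-ratios scaling, library weights, a block for the replicate number, and leaving out each library. Values of some named genes are not reported here.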

Additional observations from a re-analysis of the deposited data

How the results depend on the processing

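Under the 13 alternatives 0 members and 0 other pathway genes passed limma's adjustment, whereas 1 gene of all passed without control 1 and 5 passed with the replicate block. The sign of the difference stayed the same in 22 of the 30 tested members. With quantile normalization the log2 difference turned to -0.071 for Crat, 0.001 for Hadha and 0.009 for Hsd17b4, and with median-of-ratios scaling to -0.057 for Crat. Median-of-ratios scaling gave 17 members lower and 0 higher without overlap, a median of -0.184 for members and of -0.090 for other pathway genes, with the median of all rows at -0.007 in place of 0.061. Without 1 control the other is assumed to vary like the knockouts. Leaving out 1 library at a time gave between 11 and 18 members lower and between 2 and 4 higher without overlap, while 10.3% to 19.5% and 25.8% to 37.5% of all rows did so. The median of members ranged from -0.154 to -0.098, and that of other pathway genes from -0.057 to 0.040. Without knockout 1 the log2 difference moved from -0.544 to -0.448 for Acaa1b, from -0.476 to -0.415 for Vnn1 and from -0.451 to -0.258 for Acot1. Leaving out 1 library turned signs within these ranges: Crat -0.369 to 0.318, Hadha -0.088 to 0.051, Acaa1a -0.200 to 0.095, Acot3 -0.115 to 0.830, Hsd17b4 -0.094 to 0.037, Acot4 -0.480 to 0.247, Fabp1 -0.035 to 0.381 and Bdh1 -0.120 to 0.013. The cause was not tested. Livers of both groups share the numbers 1 and 2, but the labels do not say that a number marks a shared litter or day. The differences between numbers 1 and 2 correlated at 0.24 across genes. With the replicate block the members' median was -0.105, the smallest adjusted p of a member was 0.107, and Acaa1a turned to 0.004. FPKM without totals limit what can be said of members near 1 FPKM, Acot3 among them.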

Other observations

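One order of the knockouts recurred among the members, a pattern seen only after the values were examined. Crat, Acot1, Acot3, Acot4 and Vnn1 were highest in knockout 2, next in knockout 3 and lowest in knockout 1. Cyp4a14 and Cyp4a10 had the same order, with 7.06, 3.25 and 1.28 FPKM and 46.0, 12.7 and 4.34 FPKM. Of the 30 tested members 10 (33.3%) had this order, as did 33 of 110 other pathway genes (30.0%) and 16.5% of all tested rows. Hadha, Hadhb, Etfa, Eci2 and Cpt1a shared the order, whereas the PPARα targets Fabp1, Ehhadh and Acsl1 were highest in knockout 3 and lowest in knockout 2, and Acaa1b was highest in knockout 3 and lowest in knockout 1. Acadm did not show it either, with 173 FPKM in knockout 3, 176 in knockout 1 and 184 in knockout 2. Knockout 1 was also the library with the highest hemoglobin sum, and its part in the order was not tested.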
